A study of Mus musculus with 12 samples.

Results

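The 10 genes of the immediate early response were followed in NIH3T3 cells, a line of mouse embryonic fibroblasts, and in a derivative of it without the N-VEGF coding region. They were chosen by symbol from the table of raw counts and make up 10 of its 54446 genes: Fos, Fosb, Fosl1 and Fosl2 of the FOS family, Jun, Junb and Jund of the JUN family, Egr1 and Egr2 of the EGR family, and Ier3. All 10 passed the filter on low counts that left 14724 genes for testing. Wild-type cells (WT) and cells with the dNVEGF deletion (ΔN-VEGF cells) were each kept for 16 h in normoxia or in hypoxia below 0.2% oxygen, and RNA was sequenced from 3 samples in each of the 4 groups. The deletion was made with Cas9, a pair of guide RNAs and donor cassettes that were later excised, in clones grown from single cells, and the sources used here do not say which clone gave the RNA. Nothing used here says that WT cells were cloned as well, so the deletion and the clonal history cannot be told apart in any comparison of the lines. The methods state in general that experiments were repeated, but not whether the 3 RNA samples of a group came from separate cultures, and p-values therefore measure the spread between these samples, which may be technical.

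Immediate early genes are switched on by growth factors, stress and other signals without the need for new protein synthesis, and many of their mRNAs are short-lived. FOS proteins pair with JUN proteins through leucine zippers to form the transcription factor AP-1, whereas JUN proteins can also pair with each other. EGR proteins are zinc finger factors that bind GC-rich sites, and their genes are, like Fos, classic targets of serum response factor and of MAP kinase signalling. Ier3 is not a transcription factor. It encodes a small stress-induced protein known for its role in cell survival and as a substrate of ERK. Fibroblasts are the cells in which much of this programme was first described, usually within minutes to hours of adding serum, so that samples taken after 16 h show levels late in the exposure.

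RefSeq promoter windows from 250 bases before to 50 bases after each start (GRCm38.p6) were found for 8 of the 10 genes, all but Fosl1 and Egr1, and comprised 12 windows. The sequences before the start are given below for Fos, Jun, Junb and Ier3, 4 of the genes that rose under hypoxia in at least 1 line, in lower case, 5′ to 3′ on the strand of the gene. Capitals mark TGACG, the core of the cAMP response element, in Fos and Junb, and ACGTG, a form of the hypoxia-inducible factor (HIF) core, in Ier3. The Ier3 sequence holds 221 bases because it stops at the annotated start of the gene, ahead of the RefSeq start. The Jun sequence has no capitals because none of the motifs searched was found in it.
Fos, chr12:85473640-85473889 on the plus strand: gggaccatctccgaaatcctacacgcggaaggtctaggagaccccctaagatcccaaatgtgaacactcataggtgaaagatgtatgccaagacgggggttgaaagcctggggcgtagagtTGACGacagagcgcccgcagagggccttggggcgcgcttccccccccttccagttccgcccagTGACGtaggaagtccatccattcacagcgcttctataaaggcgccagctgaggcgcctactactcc
Jun, chr4:95052223-95052472 on the minus strand: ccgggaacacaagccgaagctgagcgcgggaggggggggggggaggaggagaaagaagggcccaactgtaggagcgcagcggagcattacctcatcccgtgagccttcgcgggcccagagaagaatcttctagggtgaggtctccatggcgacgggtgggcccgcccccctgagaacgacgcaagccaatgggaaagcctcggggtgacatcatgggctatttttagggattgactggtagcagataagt
Junb, chr8:84978749-84978998 on the minus strand: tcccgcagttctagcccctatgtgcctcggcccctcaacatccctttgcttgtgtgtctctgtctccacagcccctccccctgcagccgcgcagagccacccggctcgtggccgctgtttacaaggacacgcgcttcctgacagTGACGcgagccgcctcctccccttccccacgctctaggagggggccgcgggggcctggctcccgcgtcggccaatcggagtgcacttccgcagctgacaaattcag
Ier3, chr17:35821463-35821683 on the plus strand: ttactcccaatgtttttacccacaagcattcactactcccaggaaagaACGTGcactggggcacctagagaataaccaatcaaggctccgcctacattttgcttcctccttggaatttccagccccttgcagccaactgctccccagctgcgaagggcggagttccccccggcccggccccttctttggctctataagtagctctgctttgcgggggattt

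The core TGACG, read on both strands, was present in 6 of the 12 windows, from 4 genes (Fos, Fosb, Junb and Egr2), and 20.8% of the 32851 windows in the table held it. In Fos the matches began 129 and 66 bases before the start, and in Junb 106 bases before it. The full palindrome TGACGTCA, which contains this core, was in none of the members' windows and in 1.79% of all. The CArG box, the element bound by serum response factor, was found in Egr2 alone, in 4 of its 5 windows, against 1.63% of all windows. The AP-1 site TGANTCA was found in none of the 12 windows (7.81% of all), and the EGR site GCGNGGGCG in Fosb and Fosl2 (5.55% of all). The HIF core, ACGTG or GCGTG on both strands, was in 6 of the 12 windows, from 6 genes, and in 43.8% of all windows. In Ier3 it began 202 bases before the RefSeq start. Cores in Fos and Junb are on the other strand and are not capitalised, and the last letters of TGACG can begin such a core. These matches describe letters and are not measurements of binding.

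Each sample held 30519052 to 43056690 counts on genes. Levels are given in CPM, read counts scaled to a library of fixed size, after TMM scaling, which equalises libraries on the bulk of their genes. A single library stood apart: the log2 CPM of replicate 2 of WT normoxia correlated with the other 2 of its group at 0.956 and 0.957, and those 2 with each other at 0.996. In it the 12 known hypoxia targets summed to 2705 CPM, against 1541 and 1497 CPM in the other 2. Replicate 2 of ΔN-VEGF normoxia stood apart less (0.986 against 0.996). Calls of members that changed without replicate 2 of WT normoxia are given both ways. Values of single genes from the lists rest on all 12 samples only. All 12 fibroblast markers were detected in every sample. They summed to 17745 to 26901 CPM in WT normoxia, 27872 to 30049 in WT hypoxia, 21377 to 22342 in ΔN-VEGF normoxia and 42376 to 44494 in ΔN-VEGF hypoxia. Hypoxia raised 2 and lowered 4 of them in WT, beside 18.2% and 18.3% of all genes tested. In ΔN-VEGF cells it raised 5 and lowered 2, beside 26.9% and 26.4%. The epithelial marker Epcam had 0 counts throughout, the leukocyte marker Ptprc at most 2, and the endothelial markers Kdr and Emcn at most 1. Vegfa, the gene that carries the deletion, had 39.4 to 86.2 CPM in WT normoxia, 272 to 291 in WT hypoxia, 34.2 to 37.3 in ΔN-VEGF normoxia and 419 to 437 in ΔN-VEGF hypoxia. A count per gene does not resolve the deleted stretch, and these levels check nothing about the labels.

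**Figure D1:**
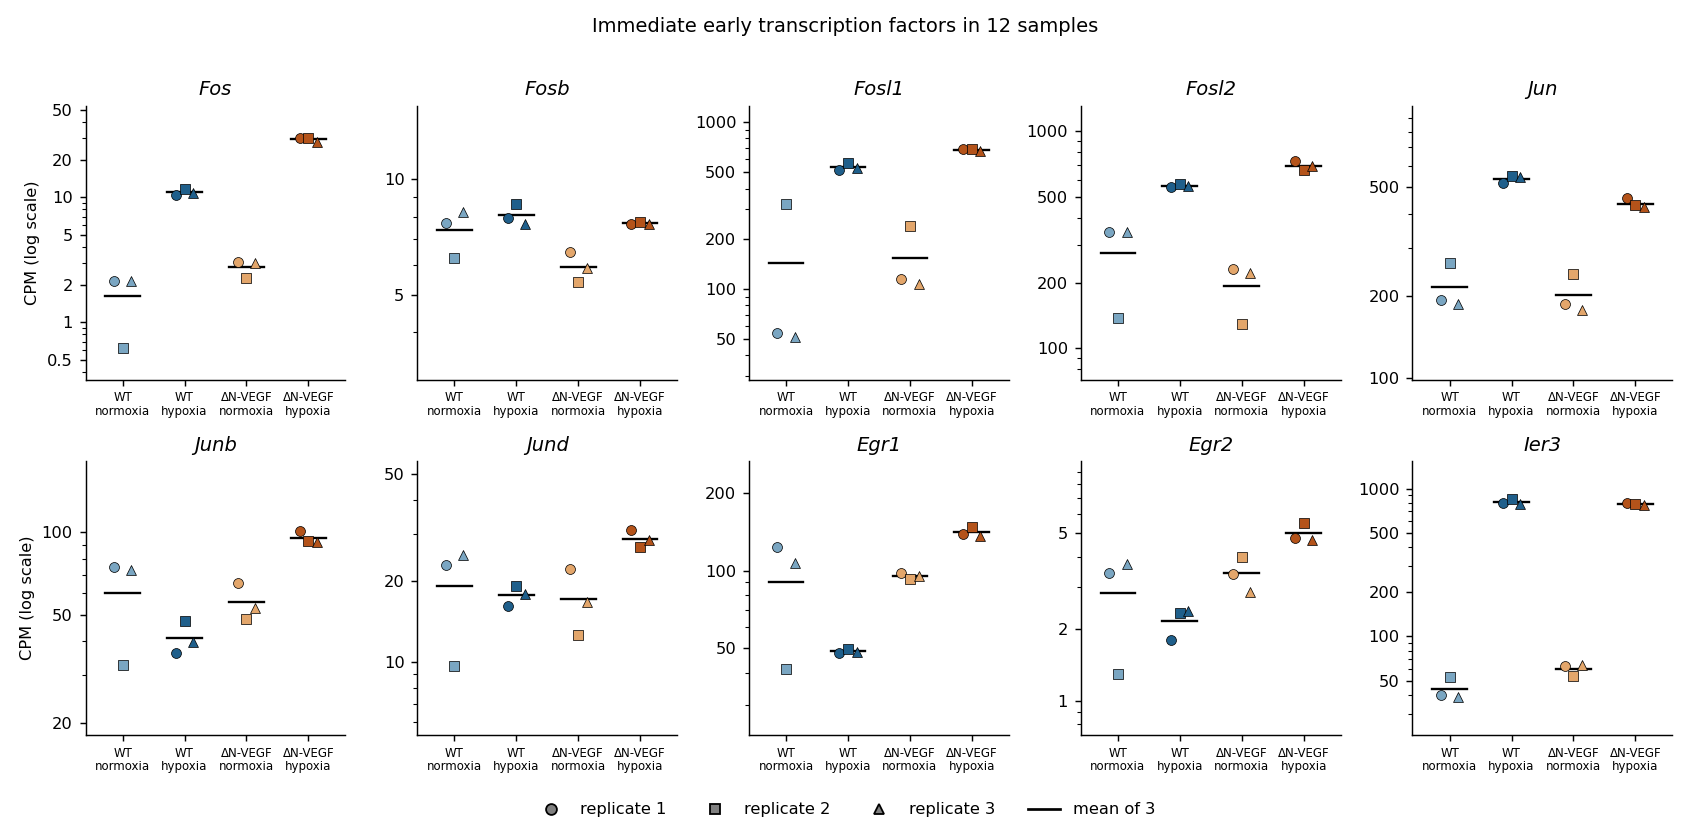
Level of each gene in the 12 samples, in CPM on a log axis, with a marker shape for each replicate number and a black line at the mean of 3. Replicate 2 of WT normoxia is the highest or the lowest of its group in every gene, by a wide gap in most.

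Fos rose in both lines under hypoxia and was higher in ΔN-VEGF than in WT hypoxia. Fos (chr12:85473890-85477273) encodes c-Fos, the founding partner of JUN in AP-1. It was at 2.15, 0.627 and 2.14 CPM in replicates 1, 2 and 3 of WT normoxia, and at 10.4, 11.6 and 10.8 CPM in WT hypoxia. In ΔN-VEGF cells it was at 3.06, 2.27 and 2.96 CPM in normoxia and at 29.8, 29.6 and 27.6 CPM in hypoxia. Every hypoxia sample lay above every normoxia sample, and the 3 ΔN-VEGF hypoxia samples were the highest of all 12. By edgeR's quasi-likelihood test, with p-values adjusted after Benjamini and Hochberg over the 14724 genes, the rise was 6.64-fold in WT (log2 2.73 ± 0.33 SE, adjusted p = 9.3e-05) and 10.5-fold in ΔN-VEGF cells (3.39 ± 0.33, adjusted p = 1.1e-05). In hypoxia the ΔN-VEGF level was 2.65-fold the WT level (1.40 ± 0.31, adjusted p = 0.0094). The difference between the rises of the lines, 0.66 ± 0.45, did not pass (adjusted p = 0.44). These are read counts of a bulk sample, in which fewer cells with the mRNA and less of it per cell cannot be told apart.

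Fosl1 and Fosl2 were the abundant FOS genes. Fosl1 (chr19:5447703-5455945) encodes Fra-1, a FOS protein without the strong activation domain of c-Fos. It was at 54.5, 322 and 51.6 CPM in WT normoxia and at 514, 569 and 532 CPM in WT hypoxia. ΔN-VEGF cells had 115, 238 and 107 CPM in normoxia and 686, 694 and 670 CPM in hypoxia. In normoxia the sample numbered 2 was the highest of each line, and the hypoxia samples lay above all of them. The rise was 3.77-fold in WT (1.92 ± 0.61, edgeR adjusted p = 0.03) and 4.45-fold in ΔN-VEGF cells (2.15 ± 0.62, adjusted p = 0.012). Without replicate 2 of WT normoxia the WT rise was 3.35 ± 0.29 on the log2 scale (adjusted p = 7.9e-07). Leaving out any other WT sample ended the call (adjusted p 0.063 to 0.076), as did leaving out replicate 1 or 3 of ΔN-VEGF normoxia in the mutant line (0.051 and 0.052). With the 6 WT samples alone the WT rise did not pass (1.91, adjusted p = 0.11).

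Fosl2 (chr5:32135801-32157842) encodes Fra-2, the other FOS protein of that kind. It was at 344, 138 and 344 CPM in WT normoxia and at 553, 571 and 562 CPM in WT hypoxia. ΔN-VEGF cells had 231, 129 and 221 CPM in normoxia and 727, 662 and 693 CPM in hypoxia. Here the samples numbered 2 were the lowest in normoxia, the reverse of Fosl1. Fosl2 rose 2.04-fold in WT (1.03 ± 0.30, edgeR adjusted p = 0.021) and 3.58-fold in ΔN-VEGF cells (1.84 ± 0.31, adjusted p = 0.00051). The WT call was lost without replicate 2 or replicate 3 of WT hypoxia (adjusted p 0.055 and 0.051), with total counts (0.76, adjusted p = 0.093) and with the 6 WT samples alone (adjusted p = 0.086). Without replicate 2 of WT normoxia the rise was 0.71 ± 0.18 (adjusted p = 0.0044).

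Fosb (chr7:19302696-19310051), whose protein is best known from activity-dependent transcription in neurons, changed little. It ranged from 6.25 to 8.21 CPM in WT normoxia, 7.64 to 8.63 in WT hypoxia, 5.42 to 6.46 in ΔN-VEGF normoxia and 7.64 to 7.75 in ΔN-VEGF hypoxia. The WT groups overlapped, with a difference of 0.12 ± 0.13 (edgeR adjusted p = 0.48). In ΔN-VEGF cells it was 1.3-fold higher in hypoxia (0.38 ± 0.13, adjusted p = 0.03), but the value turned to -0.029 when libraries were scaled by their total counts alone. That call was also lost when any 1 of replicates 2 and 3 of ΔN-VEGF normoxia or the 3 ΔN-VEGF hypoxia samples was left out (adjusted p 0.073 to 0.091). A fit with no filter on low counts ended it too (0.28, adjusted p = 0.3).

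Jun rose with hypoxia in both lines, Junb in ΔN-VEGF cells, and Jund passed the test in neither. Jun (chr4:95049034-95052222) encodes c-Jun, the main JUN partner in AP-1. It was at 194, 265 and 188 CPM in WT normoxia and at 519, 551 and 546 CPM in WT hypoxia. ΔN-VEGF cells had 187, 241 and 178 CPM in normoxia and 456, 430 and 423 CPM in hypoxia. The rise was 2.50-fold in WT (1.32 ± 0.15, edgeR adjusted p = 5e-05) and 2.16-fold in ΔN-VEGF cells (1.11 ± 0.15, adjusted p = 9.1e-05). The 3 ΔN-VEGF hypoxia samples lay below the 3 WT hypoxia samples, a difference of -0.30 ± 0.15 that did not pass the test (adjusted p = 0.17) and that passed without replicate 2 of WT normoxia (-0.31 ± 0.10, adjusted p = 0.021). Jun shares 689 bases with the antisense gene Junos, which had 2.89 to 7.03 CPM in WT normoxia, 20.2 to 22.9 in WT hypoxia, 3.50 to 4.26 in ΔN-VEGF normoxia and 7.97 to 9.23 in ΔN-VEGF hypoxia. The strand setting of the counting is not given in the sources used here, and reads over the shared part cannot be told apart.

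Junb (chr8:84974484-84978718) encodes JunB, a weaker activator that can hold back c-Jun. It was at 75.0, 32.6 and 73.1 CPM in WT normoxia and at 36.2, 47.2 and 39.6 CPM in WT hypoxia. In the mutant line Junb was at 65.3, 48.2 and 52.7 CPM in normoxia and at 101, 93.3 and 91.9 CPM in hypoxia. The WT groups overlapped only through replicate 2 of normoxia, whereas in ΔN-VEGF cells every hypoxia sample was above every normoxia sample. The WT difference was -0.56 ± 0.26 (edgeR adjusted p = 0.12). Without that replicate Junb fell by 0.85 on the log2 scale (SE 0.13, adjusted p = 9.2e-05). In ΔN-VEGF cells Junb rose 1.72-fold (0.78 ± 0.26, adjusted p = 0.025), a call lost without replicate 2 or 3 of ΔN-VEGF normoxia or any 1 of the ΔN-VEGF hypoxia samples (adjusted p 0.051 to 0.084) and under scaling by total counts (0.38, adjusted p = 0.3).

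In hypoxia the ΔN-VEGF level of Junb was 2.33-fold the WT level (1.22 ± 0.26, edgeR adjusted p = 0.0086), and the groups did not overlap. Junb shares 351 bases with Prdx2, which encodes a peroxiredoxin and was the more abundant gene of the pair. Prdx2 had 195 to 215 CPM in WT normoxia, 163 to 194 in WT hypoxia, 203 to 234 in ΔN-VEGF normoxia and 125 to 143 in ΔN-VEGF hypoxia, and was thus lowest in the group in which Junb was highest.

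Jund (chr8:70698949-70700616) encodes JunD, the JUN protein that resting cells usually keep. Its levels were 22.9, 9.66 and 25.0 CPM in WT normoxia, and 16.2, 19.2 and 18.0 CPM in WT hypoxia. In ΔN-VEGF cells they were 22.2, 12.6 and 16.7 CPM in normoxia and 30.9, 26.8 and 28.3 CPM in hypoxia. The WT groups overlapped (-0.11 ± 0.30, edgeR adjusted p = 0.8). In ΔN-VEGF cells the hypoxia samples lay above the normoxia samples, but the difference of 0.74 ± 0.30 did not pass the test (adjusted p = 0.059), nor did the difference from WT in hypoxia (0.69 ± 0.30, adjusted p = 0.14). Without replicate 2 of WT normoxia both passed (adjusted p = 0.0011 and 0.0038). By DESeq2 with all samples the rise of Jund in ΔN-VEGF hypoxia passed (0.74, adjusted p = 0.044). The antisense gene Gm11175, which shares 919 bases with Jund, had 0 counts in all 12 samples.

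The EGR genes were both higher in ΔN-VEGF than in WT cells under hypoxia. Egr1 (chr18:34859823-34864984) encodes a zinc finger activator that serum induces within minutes in fibroblasts. It was at 123, 41.1 and 107 CPM in WT normoxia and at 47.9, 49.6 and 48.0 CPM in WT hypoxia. ΔN-VEGF cells had 98.2, 92.3 and 95.6 CPM in normoxia and 139, 148 and 136 CPM in hypoxia. Hypoxia lowered Egr1 in WT (-0.90 ± 0.29, edgeR adjusted p = 0.032), with an overlap through replicate 2 of normoxia alone. Without that replicate it fell by 1.24 on the log2 scale (SE 0.07, adjusted p = 2.8e-08), and leaving out any other WT sample ended the call (adjusted p 0.081 to 0.12). With the 6 WT samples alone the fall of Egr1 did not pass (-0.93, adjusted p = 0.13). In ΔN-VEGF cells the hypoxia samples were all above the normoxia samples, with a difference of 0.57 ± 0.29 that did not pass (adjusted p = 0.12) and that passed without replicate 2 of WT normoxia (0.56 ± 0.07, adjusted p = 8.3e-06). In hypoxia the ΔN-VEGF level was 2.91-fold the WT level (1.54 ± 0.30, adjusted p = 0.0051).

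Egr2 (chr10:67535475-67542188), known as Krox20 and for its role in myelinating cells, was rare. It was at 3.42, 1.3 and 3.74 CPM in WT normoxia, and at 1.79, 2.33 and 2.37 CPM in WT hypoxia. In ΔN-VEGF cells it was at 3.38, 3.98 and 2.84 CPM in normoxia and at 4.79, 5.53 and 4.69 CPM in hypoxia. These are 56 to 194 counts per sample. Neither hypoxia comparison passed, at -0.39 ± 0.32 in WT (edgeR adjusted p = 0.38) and 0.56 ± 0.32 in ΔN-VEGF cells (adjusted p = 0.16). Both passed without replicate 2 of WT normoxia, at -0.73 in WT (adjusted p = 0.0035) and 0.55 in ΔN-VEGF cells (adjusted p = 0.0059). In hypoxia the ΔN-VEGF level was 2.31-fold the WT level (1.21 ± 0.32, adjusted p = 0.024), without overlap. That call was lost when any 1 of the 6 hypoxia samples was left out (adjusted p 0.058 to 0.098).

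Ier3 (chr17:35821684-35822923) had the largest change of the 10 genes under hypoxia in each line. It was at 40.1, 53.2 and 38.8 CPM in WT normoxia and at 796, 847 and 781 CPM in WT hypoxia. ΔN-VEGF cells had 62.7, 54.0 and 64.6 CPM in normoxia and 802, 788 and 779 CPM in hypoxia. The normoxia groups did not overlap, while the hypoxia groups did. Ier3 rose 18.3-fold in WT (4.20 ± 0.14, edgeR adjusted p = 6.7e-09) and 13.1-fold in ΔN-VEGF cells (3.71 ± 0.14, adjusted p = 7.8e-09). The lines differed by 0.46 ± 0.12 in normoxia (adjusted p = 0.062) and by -0.03 ± 0.12 in hypoxia (adjusted p = 0.88).

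**Figure D2:**
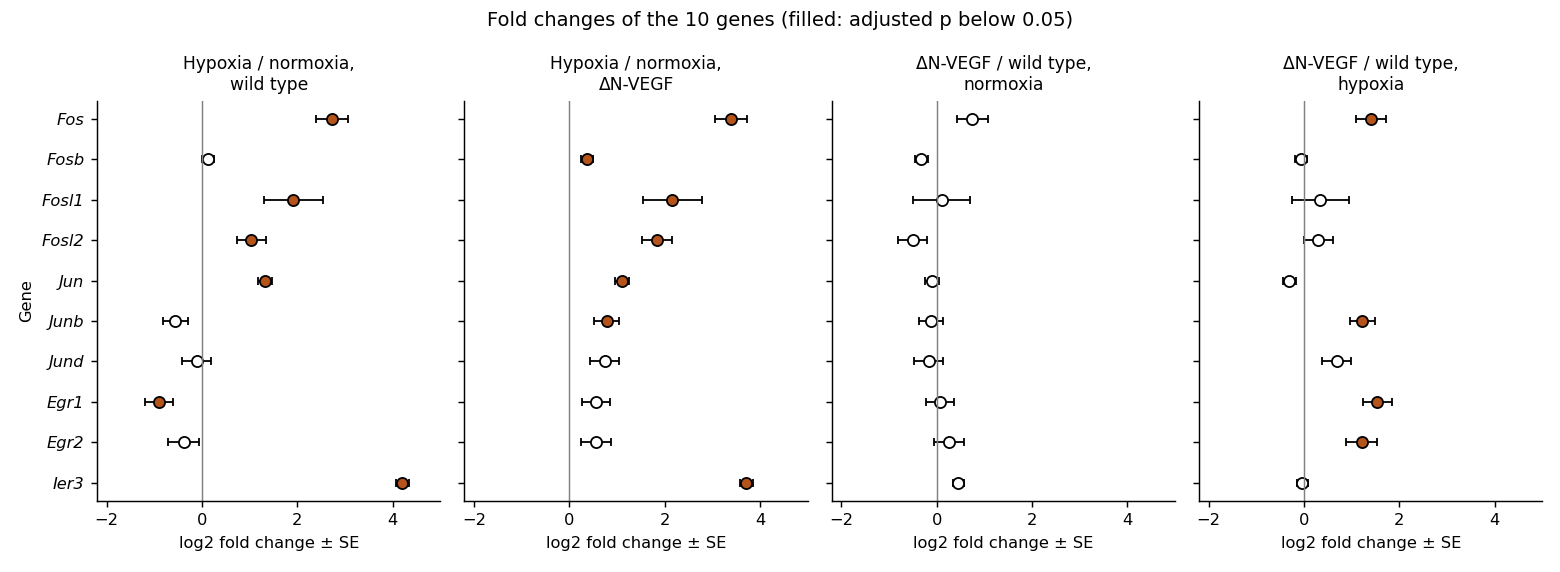
Log2 fold change of each gene with its SE (bars) in the 4 comparisons of groups, from edgeR, with filled points for an adjusted p below 0.05. Fos, Fosl1, Fosl2, Jun and Ier3 rose under hypoxia in both lines, no member passed between the lines in normoxia, and Fos, Junb, Egr1 and Egr2 passed between them in hypoxia.

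Over the 10 genes, hypoxia raised 5 (Fos, Fosl1, Fosl2, Jun and Ier3) and lowered 1 (Egr1) in WT cells, where it raised 18.2% and lowered 18.3% of all genes tested. In ΔN-VEGF cells it raised 7 (these 5, Fosb and Junb) and lowered 0, where 26.9% of all genes rose and 26.4% fell. At an unadjusted p below 0.05 the counts of changed members were 6 and 8, beside 46.1% and 58.8% of all genes, and DESeq2 called 5 and 7, with no adjusted p for Fosl1, beside 19.1% and 27.4% of all genes raised and 20.2% and 26.4% lowered. The median log2 change of the members was 0.58 in WT and 0.95 in ΔN-VEGF cells, beside -0.07 and -0.01 over all genes. Both comparisons use TMM scaling. With total counts alone the median of all genes moved to -0.30 in WT and -0.41 in ΔN-VEGF cells, the shares raised and lowered became 12.8% and 32.7% in WT and 15.3% and 44.5% in ΔN-VEGF cells, and the members changed numbered 6 and 5, with Junb in and Fosl2 out in WT. Without replicate 2 of WT normoxia, 8 members changed in WT and all 10 in ΔN-VEGF cells, while 27.6% and 33.1% of all genes rose and 26.8% and 35.1% fell. Without replicate 2 or replicate 3 of WT hypoxia 3 members changed in WT, where 15.6% or 14.9% of all genes rose and 13.1% or 12.4% fell. Without replicate 3 of ΔN-VEGF normoxia 4 changed in ΔN-VEGF cells, where 23.2% rose and 23.1% fell.

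The comparisons of the lines share their samples with the comparisons of oxygen, so their values are set side by side and not combined. In normoxia no member passed between ΔN-VEGF and WT cells by edgeR, where 1.39% of all genes were higher and 2.97% lower in ΔN-VEGF cells. At an unadjusted p below 0.05 there were 3 (Fos, Fosb and Ier3), beside 19% of all genes, and DESeq2 called 1 (Ier3), beside 3.01% of all genes higher and 6.04% lower by that tool. Leaving out replicate 2 of WT normoxia brought 8 calls, beside 26.4% of all genes higher and 22.9% lower. Then Fosl1 was higher by 1.55 ± 0.27 (adjusted p = 0.00048), Ier3 by 0.63 ± 0.08 (adjusted p = 7.5e-05) and Fos by 0.38 ± 0.14 (adjusted p = 0.036). The 5 others were lower, from Fosl2 at -0.81 ± 0.17 to Egr1 at -0.26 ± 0.07, with Jund, Junb and Fosb between them. Without both normoxia samples numbered 2 there were also 8 calls, beside 28.5% of all genes higher and 25.5% lower, with Fosl1 at 1.08 ± 0.07, Fos at 0.50 ± 0.13, Ier3 at 0.70 ± 0.06 and Fosl2 at -0.59 ± 0.06 (all from edgeR). Egr1 turned from 0.07 with all samples to -0.26 and -0.24 in these fits.

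In hypoxia 4 members passed between the lines, Fos, Junb, Egr1 and Egr2, and all 4 were higher in ΔN-VEGF cells. Over all genes 10.8% were higher and 9.36% lower, and with total counts alone 4.57% and 22.2%, with a median of all genes of -0.23. Under that scaling 4 members passed too, with Fos at 1.18, Junb at 1.0, Egr1 at 1.32 and Jun at -0.52, while Egr2 did not (0.99, adjusted p = 0.062). The median of the members was 0.52 and that of all genes -0.01. The other FOS genes differed little between the lines in hypoxia, with Fosb at -0.07 ± 0.13, Fosl1 at 0.34 ± 0.59 and Fosl2 at 0.30 ± 0.30. Within hypoxia the lines did not overlap for either of the last 2 genes. Both passed without the 2 normoxia samples numbered 2 (adjusted p = 1.1e-05 and 2.2e-05) and with the 6 hypoxia samples alone (6.7e-05 and 0.0002). In the fit of the 6 hypoxia samples Jun (adjusted p = 0.00012) and Jund (1.6e-06) passed too (all from edgeR).

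Whether the response to hypoxia itself differed between the lines was tested as an interaction, the ΔN-VEGF change minus the WT change. By edgeR no member passed, where 2.21% of all genes had a higher and 1.15% a lower response in ΔN-VEGF cells. The largest values were 1.47 ± 0.41 for Egr1 (adjusted p = 0.076) and 1.34 ± 0.37 for Junb (adjusted p = 0.071). At an unadjusted p below 0.05 there were 3 members (Junb, Egr1 and Ier3), beside 21% of all genes, and DESeq2 called 2, Junb (adjusted p = 0.01) and Egr1 (0.011), beside 6.83% of all genes higher and 3.29% lower by that tool. Without replicate 2 of WT normoxia 9 members passed, beside 21.6% of all genes higher and 23.7% lower. Of these 6 had the higher response in ΔN-VEGF cells, with Egr1 at 1.8 ± 0.10, Junb at 1.62 ± 0.17 and Egr2 at 1.27 ± 0.23, then Jund, Fosl2 and Fos from 1.16 to 1.02. The 3 with the lower response were Fosl1 (-1.20 ± 0.34), Ier3 (-0.66 ± 0.11) and Jun (-0.40 ± 0.14). Fosl1 turned, since its value over all 12 samples was 0.24 ± 0.84. Without both normoxia samples numbered 2, 9 passed again, beside 26.0% of all genes higher and 27.7% lower, with Egr1 at 1.78, Junb at 1.54, Ier3 at -0.73 and Fosl1 at -0.73. With total counts alone the median of all genes was -0.15 and Ier3 passed (-0.68, edgeR adjusted p = 0.023).

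**Figure D3:**
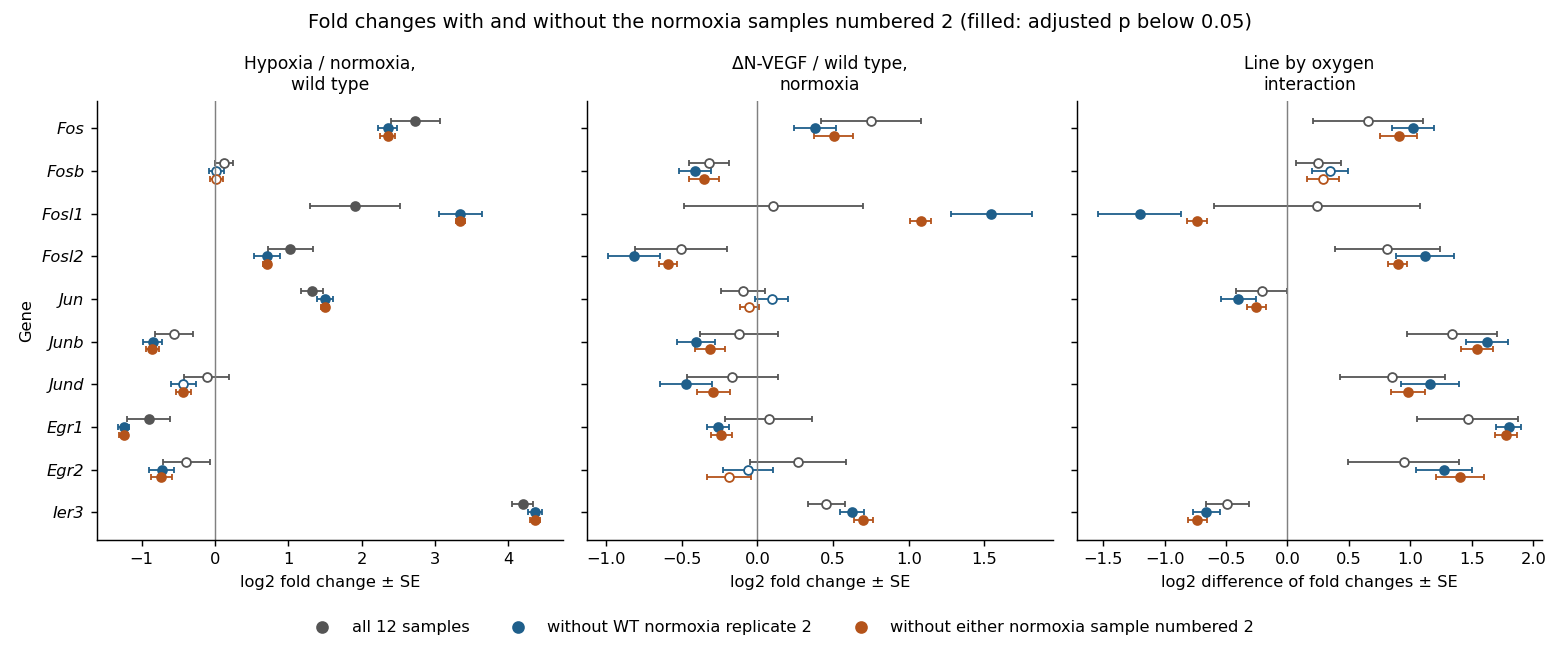
Log2 fold change with SE (edgeR) of each gene for hypoxia in WT, the line difference in normoxia and the interaction, with all 12 samples, without replicate 2 of WT normoxia and without both normoxia samples numbered 2. Errors shrink in both reduced fits, and the interaction of Fosl1 moves from 0.24 to -1.20 and -0.73 while those of Egr1 and Junb stay between 1.34 and 1.8.

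Levels of different genes can be compared only per length. CPM were therefore divided by the length of the exons in kb (GENCODE vM21), which is not the annotation of the counting. Fosl1 is the 1 member whose bounds differ between them, so its level per length and its share of the FOS sum carry this added uncertainty. The JUN genes share 689 (Jun), 351 (Junb) and 919 (Jund) bases with other genes, the last out of 1668 exonic bases, and reads there may not have been counted, so their levels per length and shares are uncertain too. In WT normoxia Fosl1 (70.2 ± 76.4 CPM per kb, SD, n = 3) and Jun (67.6 ± 13.5) led and did not differ beyond their spread, but the place of Fosl1 rested on replicate 2. Without that replicate, an alternative chosen after seeing the data, Jun led at 59.8 CPM per kb, Fosl2, Ier3 and Junb had 35.5, 34.9 and 32.2, and Fosl1 was the fifth at 26.1. With all 3 samples Ier3, Fosl2, Junb, Egr1 and Jund followed from 38.9 to 11.5 CPM per kb, each overlapping its neighbour. Fosb, Egr2 and Fos were far lower, at 1.18, 0.830 and 0.696 CPM per kb, and overlapped as well. In WT hypoxia Ier3 led at 714 ± 30.8 CPM per kb, followed by Fosl1 (265 ± 13.9), Jun (169 ± 5.39), Fosl2 (58.1 ± 0.892), and Junb (17.8 ± 2.45). Egr1 (10.8) and Jund (10.7) overlapped, and Fos (4.66), Fosb (1.29) and Egr2 (0.637) closed the order. Thus c-Fos mRNA rose 6.64-fold in WT hypoxia and still ranked below those of its relatives Fosl1 and Fosl2.

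In ΔN-VEGF normoxia Fosl1 (75.5 ± 36.2 CPM per kb), Jun (63.3 ± 10.6) and Ier3 (53.4 ± 5.01) overlapped at the top, Junb, Egr1 and Fosl2 (24.1, 21.3 and 20.03) overlapped next, and Fos, Egr2 and Fosb lay between 1.18 and 0.949. Without replicate 2 Jun, Ier3 and Fosl1 had 57.2, 56.3 and 54.6 CPM per kb. In ΔN-VEGF hypoxia no neighbours overlapped. The order was Ier3 (698 ± 10.1), Fosl1 (336 ± 5.96), Jun (137 ± 5.34), Fosl2 (71.7 ± 3.36), Junb (41.5 ± 2.12), Egr1 (31.5 ± 1.34), Jund (17.2 ± 1.24), Fos (12.3 ± 0.525), Egr2 (1.47 ± 0.135) and Fosb (1.23 ± 0.00922).

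The shares within each family show which subunits were available as mRNA. Of the summed CPM per kb of the 4 FOS genes, Fosl1 made up 80.5% ± 0.521 in WT hypoxia and 79.8% ± 0.745 in ΔN-VEGF hypoxia (SD, n = 3). In normoxia its share ran from 40.2% to 91.1% in WT and from 67.7% to 88.5% in ΔN-VEGF cells. Fos itself held 1.42% ± 0.0125 in WT hypoxia and 2.92% ± 0.0809 in ΔN-VEGF hypoxia. The summed level of the family was 101 CPM per kb in WT normoxia (63.1 to 174), 329 in WT hypoxia, 97.7 in ΔN-VEGF normoxia and 422 in ΔN-VEGF hypoxia. Leaving out the samples numbered 2 gave 63.8 in WT normoxia, where Fosl2 then held 55.7% and Fosl1 40.9%, and 80.3 in ΔN-VEGF normoxia, where Fosl1 held 68.1%.

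Among the 3 JUN genes, Jun held 85.6% ± 1.1 in WT hypoxia and 70.0% ± 0.421 in ΔN-VEGF hypoxia, and the samples of the lines did not overlap. Junb held 9.0% ± 0.885 and 21.2% ± 0.159 in the same groups, and Jund 5.39% ± 0.227 and 8.78% ± 0.346. The summed level was nearly equal, at 197 ± 8.46 CPM per kb in WT and 195 ± 8.53 in ΔN-VEGF hypoxia. In normoxia Jun held 64.4% in WT (55.8% to 80.6%) and 64.7% in ΔN-VEGF cells (58.4% to 72.6%), and 56.2% and 60.7% without the samples numbered 2. These shares are descriptions of mRNA, with no test.

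**Figure D4:**
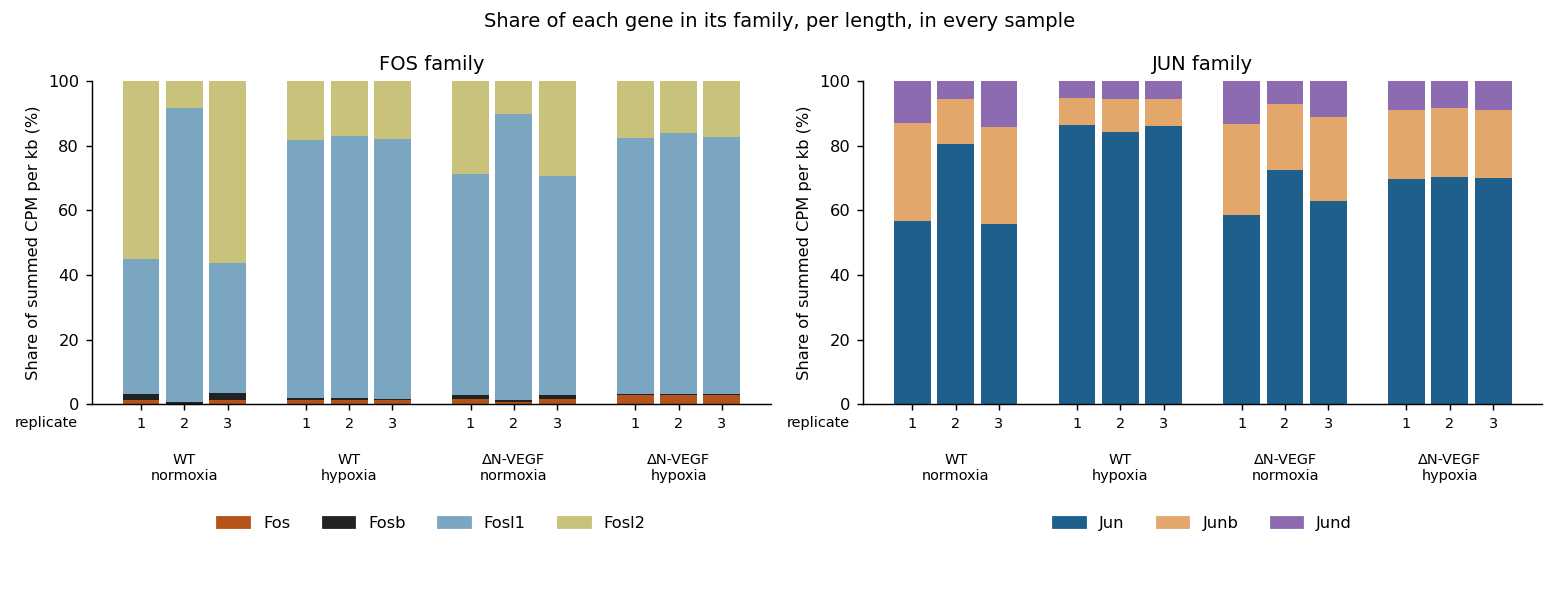
Share of each gene, in percent, in the summed CPM per kb of the FOS family and of the JUN family, with a stacked bar for each of the 12 samples. Fosl1 takes 79.1% to 81.1% of the FOS sum in the 6 hypoxia samples, and Junb takes more of the JUN sum in ΔN-VEGF hypoxia (21.1% to 21.4%) than in WT hypoxia (8.35% to 10.01%).

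The genes around these factors were described by fixed lists, for which only counts and medians are given and no test of the list. Atf3, Dcn, Dusp1, Fn1, Maff, Nab2 and Zfp36 are each on a pair of lists. Counts are to be read against the shares of all genes given above, 18.2% raised and 18.3% lowered in WT, 26.9% and 26.4% in ΔN-VEGF cells, and 10.8% higher and 9.36% lower between the lines in hypoxia. Of 41 other immediate early genes 39 were tested. Hypoxia raised 19 and lowered 3 in WT (median log2 change 0.68, against -0.07 over all genes), and raised 22 and lowered 6 in ΔN-VEGF cells (0.75 against -0.01). Tnfaip3, which restrains NF-κB, was at 1.42 to 2.27 CPM in WT normoxia and 19.2 to 20.8 in WT hypoxia (3.44 ± 0.18), and at 1.77 to 2.51 CPM in ΔN-VEGF normoxia and 28.0 to 29.0 in ΔN-VEGF hypoxia (3.8 ± 0.18). Dusp1, the phosphatase that switches off MAP kinases, rose by 3.33 ± 0.14 and 2.85 ± 0.13. Ctgf, a matricellular growth factor, rose by 2.94 ± 0.80 in WT. The 3 genes that fell in WT were Nr4a2 (-2.2 ± 0.68), Egr3 (-1.70 ± 0.21) and Plk3 (-0.91 ± 0.20), and Plk3, a stress kinase, fell further in ΔN-VEGF cells (-2.25 ± 0.21). Without replicate 2 of WT normoxia the changed genes of the list numbered 30 in WT, in place of 22, and 35 in ΔN-VEGF cells, in place of 28, while the shares of all genes went to 27.6% raised and 26.8% lowered in WT and to 33.1% and 35.1% in ΔN-VEGF cells.

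Egr3, a relative of Egr1 and Egr2, fell under hypoxia in both lines and was higher in ΔN-VEGF than in WT cells in both conditions. It was at 6.98, 12.4 and 7.78 CPM in WT normoxia and at 2.75, 2.88 and 2.73 CPM in WT hypoxia. ΔN-VEGF cells had 18.0, 23.0 and 16.5 CPM in normoxia and 6.95, 6.79 and 6.35 CPM in hypoxia. The change under hypoxia was -1.70 ± 0.21 in WT and -1.52 ± 0.21 in ΔN-VEGF cells. It was higher in ΔN-VEGF than in WT cells in normoxia (1.08 ± 0.20, edgeR adjusted p = 0.015) and in hypoxia (1.27 ± 0.21, adjusted p = 0.0026). Nab1 and Nab2 encode co-repressors that bind EGR proteins, and Nab2 is itself a target of EGR1. Nab2 was higher in ΔN-VEGF cells in normoxia (0.73 ± 0.15, edgeR adjusted p = 0.025) and in hypoxia (0.76 ± 0.15, adjusted p = 0.0063). Hypoxia raised Nab2 in WT (0.52 ± 0.15) and in ΔN-VEGF cells (0.55 ± 0.15), while it lowered Nab1 in both (-0.47 ± 0.13 and -0.67 ± 0.13). With total counts alone only 1 of these genes changed under hypoxia in each line. Over all genes 12.8% rose and 32.7% fell in WT under that scaling, and 15.3% and 44.5% in ΔN-VEGF cells. Between the lines in hypoxia, 4 of the 39 immediate early genes were higher and 7 lower, among them Zfp36 at 1.16 ± 0.11, Homer1 at 0.64 ± 0.19, Plk3 at -1.18 ± 0.21 and Csrnp1 at -0.88 ± 0.20. Of the list 21 changed in place of 11 without replicate 2 of WT normoxia, beside 21.6% of all genes higher and 21.6% lower.

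Of 16 genes on a list of bZIP proteins, which holds partners of FOS or JUN and also Creb1 and Crem, 11 were tested. Hypoxia raised 5 and lowered 1 in WT, and raised 5 and lowered 2 in ΔN-VEGF cells. Maff, a small MAF protein without an activation domain, rose by 2.62 ± 0.25 and 2.72 ± 0.25, Atf4 of the integrated stress response by 0.99 ± 0.11 and 1.54 ± 0.11, and Jdp2, a repressor of AP-1, by 0.78 ± 0.12 and 1.49 ± 0.12. In hypoxia Atf7 (0.59 ± 0.14) and Jdp2 (0.47 ± 0.12) were higher in ΔN-VEGF than in WT cells, and Atf7 was the 1 gene of the list with a passing interaction (0.86 ± 0.20, edgeR adjusted p = 0.04). That count was 0 with total counts, 5 without replicate 2 of WT normoxia and 6 without both normoxia samples numbered 2. Over all genes 0.998% were higher and 5.13% lower in the first of these fits. The shares were 21.6% and 23.7% in the second, and 26.0% and 27.7% in the third. With total counts 0 of the list differed between the lines in hypoxia, beside 4.57% of all genes higher and 22.2% lower.

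Upstream of these genes are serum response factor and its partners, of which hypoxia raised 1 of 7 (Fhl2, 1.06 ± 0.10) and lowered 1 (Elk1, -0.54 ± 0.09) in WT, and raised 2 and lowered 1 in ΔN-VEGF cells. With replicate 2 of WT normoxia removed 4 and 6 changed, in a fit with 27.6% and 33.1% of all genes raised and 26.8% and 35.1% lowered. Of 19 genes of the MAP kinase cascade hypoxia raised 3 and lowered 1 in WT, and raised 6 and lowered 2 in ΔN-VEGF cells, and without that replicate 10 changed in WT, a share near that of all genes in the same fit. Map2k1, which encodes the ERK kinase MEK1, rose by 1.84 ± 0.17 in WT and 2.36 ± 0.17 in ΔN-VEGF cells, each against normoxia of its own line. Its levels were 48.0 to 73.0 CPM in WT normoxia, 200 to 205 in WT hypoxia and 298 to 316 in ΔN-VEGF hypoxia. Of 16 brakes on this signalling 5 rose and 4 fell in each line. Without replicate 2 of WT normoxia 12 changed in each, in the fit with the larger shares of all genes given above. Spry4, an inhibitor of receptor tyrosine kinase signals, fell by 1.54 in WT (SE 0.18) and by 2.39 in ΔN-VEGF cells (SE 0.19). The response of Dusp6, the phosphatase of ERK, differed between the lines (interaction -1.02 ± 0.23, edgeR adjusted p = 0.041). It was at 56.4, 84.7 and 55.9 CPM in WT normoxia and 54.5 to 57.2 in WT hypoxia. ΔN-VEGF cells had 91.2, 115 and 92.3 CPM in normoxia and 37.6 to 46.8 in hypoxia. With all samples Dusp6 had the 1 passing interaction among the brakes. Without replicate 2 of WT normoxia 9 passed, beside 21.6% of all genes higher and 23.7% lower.

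Proteins that bind AU-rich elements set the life of many immediate early mRNAs. Of 7 such regulators hypoxia raised 2 and lowered 2 in each line. Zfp36, which encodes tristetraprolin, was at 15.9 to 21.3 CPM in WT normoxia, 34.0 to 37.5 in WT hypoxia, 21.9 to 23.4 in ΔN-VEGF normoxia and 76.3 to 83.6 in ΔN-VEGF hypoxia. It rose by 0.93 ± 0.11 in WT and 1.81 ± 0.11 in ΔN-VEGF cells, and the difference of the responses passed (0.88 ± 0.15, edgeR adjusted p = 0.016). Zfp36 was the 1 gene of the list with a passing interaction. With total counts alone 0 of the list passed, beside 0.998% of all genes higher and 5.13% lower. Without replicate 2 of WT normoxia 4 passed, beside 21.6% higher and 23.7% lower. Tia1 fell by 0.73 in WT (SE 0.16) and by 1.14 in ΔN-VEGF cells (SE 0.16).

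Targets known from other work were counted for AP-1 and for EGR1. Of 13 tested AP-1 targets hypoxia raised 3 and lowered 3 in WT, and raised 2 and lowered 3 in ΔN-VEGF cells, with medians of -0.12 and -0.27, beside -0.07 and -0.01 over all genes. Hmox1, heme oxygenase, rose by 3.41 ± 0.14 and 4.34 ± 0.15, whereas Spp1, osteopontin, fell by 3.30 in WT (SE 0.37) and by 3.54 in ΔN-VEGF cells (SE 0.37). In hypoxia Hmox1 (1.39 ± 0.13), Mmp9 (3.11 ± 0.68) and Dcn (3.38 ± 0.51) were higher in ΔN-VEGF than in WT cells, and Lif (-0.85 ± 0.21) and Cd44 (-0.82 ± 0.21) lower. Of 9 tested EGR1 targets, hypoxia raised 4 and lowered 1 in WT, and raised 5 and lowered 1 in ΔN-VEGF cells, with medians of 0.52 and 0.54. The WT counts of changed targets went, without replicate 2 of WT normoxia, from 6 to 10 for AP-1 and from 5 to 8 for EGR1, beside 27.6% of all genes raised and 26.8% lowered, and in hypoxia 9 AP-1 targets differed between the lines in place of 5, beside 21.6% of all genes higher and 21.6% lower. With total counts alone, 2 EGR1 targets changed in WT and 3 between the lines in hypoxia, in place of 5 and 6. Under that scaling 12.8% of all genes rose and 32.7% fell in WT, and 4.57% were higher and 22.2% lower between the lines. F3, tissue factor, rose by 1.51 ± 0.31 and 2.75 ± 0.33. In hypoxia 4 of these targets were higher in ΔN-VEGF cells, including Fn1 (0.78 ± 0.20) and Ccnd2 (0.63 ± 0.12), and 2 were lower, Pdgfa (-0.78 ± 0.24) and Tnc (-0.54 ± 0.10). For comparison, all 12 known hypoxia targets rose in both lines, with medians of 3.05 and 3.54.

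**Figure D5:**
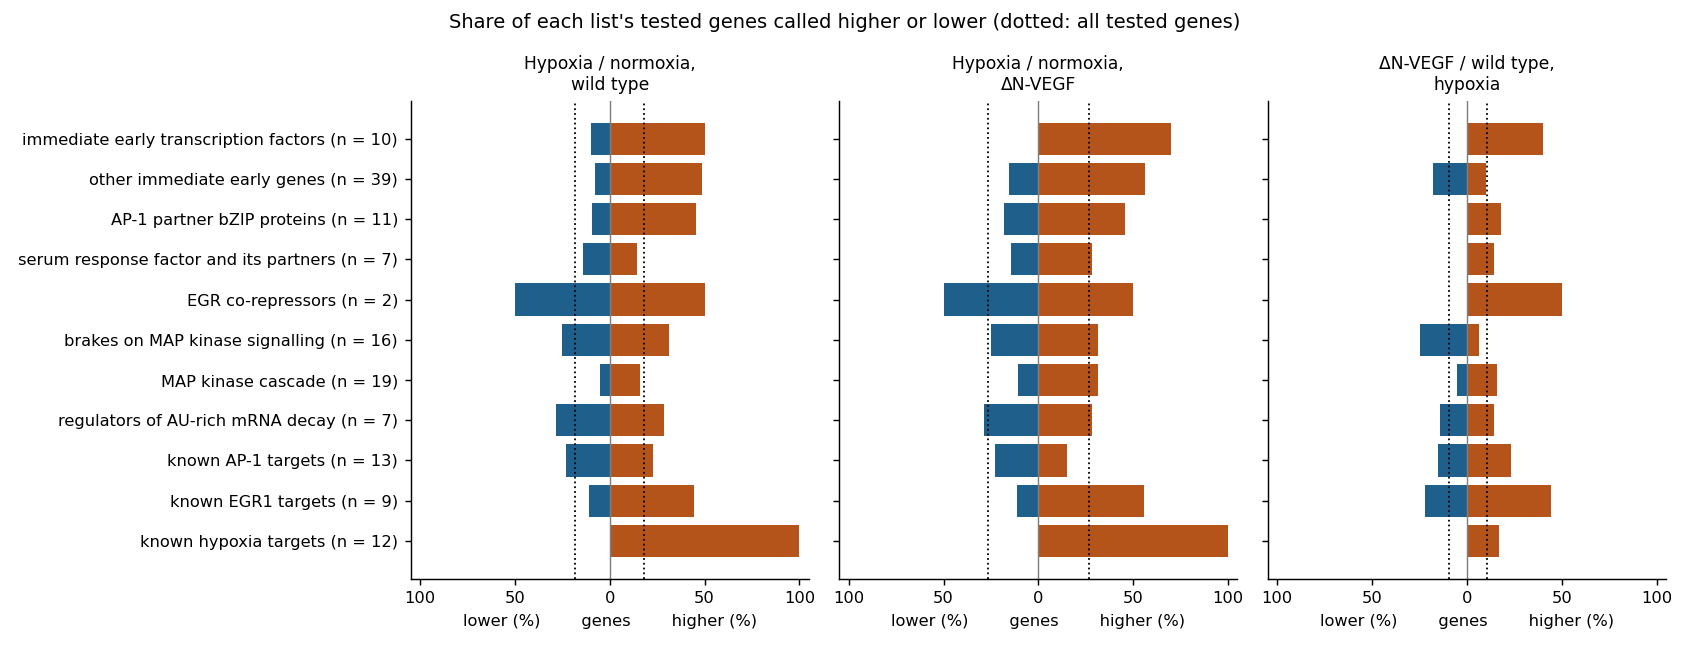
Percent of the tested genes of each list called higher (right) or lower (left) by edgeR at an adjusted p below 0.05, for hypoxia in WT, hypoxia in ΔN-VEGF cells and the lines compared in hypoxia, with dotted lines for all tested genes. All 12 known hypoxia targets rose in both lines. Of 13 AP-1 targets 3 rose and 3 fell in WT, near the shares of all genes (18.2% and 18.3%).

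Markers of other cell types were low, and Cdh5 was the most abundant endothelial one in ΔN-VEGF hypoxia. The 6 endothelial markers summed to 3.37 to 5.27 CPM in WT normoxia, 7.72 to 9.93 in WT hypoxia, 2.69 to 4.50 in ΔN-VEGF normoxia and 20.7 to 25.7 in ΔN-VEGF hypoxia, most of it from Cdh5, which encodes VE-cadherin and reached 20.4 CPM. Cdh5 rose by 1.47 ± 0.43 in WT and by 3.26 ± 0.45 in ΔN-VEGF cells and was higher in ΔN-VEGF than in WT hypoxia (1.88 ± 0.42, edgeR adjusted p = 0.011). Of the 3 endothelial markers tested, Tie1 was lower there (-1.70 ± 0.33, adjusted p = 0.0057), and Pecam1 did not pass (0.24 ± 0.28) but rose under hypoxia in ΔN-VEGF cells (1.17 ± 0.30, adjusted p = 0.0068). The leukocyte marker Cd68 rose under hypoxia in both lines (0.60 ± 0.16 and 0.58 ± 0.16), and the epithelial marker Krt8, at most 26 counts, was lower in ΔN-VEGF than in WT hypoxia (-3.31 ± 0.83, adjusted p = 0.018). The defining receptor Kdr and Emcn stayed at or below 1 count in every sample. The 6 epithelial markers summed to 0.355 to 2.42 CPM and the 6 leukocyte markers to 2.84 to 6.80 CPM over the 12 samples. The part of other cells in the results was not tested.

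The genes whose log2 CPM followed a member most closely over the 12 samples are given as a description, since all points share the same libraries and 2 conditions. Fos was followed most closely by Gabarap, an autophagy protein (Pearson r = 0.994), Hebp1 (0.993) and 6430548M08Rik (0.991), Jun by Acta1 (0.991), Kcnk2 (0.989) and F2r (0.987), and Egr1 by App (0.976), Il1r1 (0.975) and Gcc1 (0.972). Ier3 was followed by Ankrd37, Tspan9 and Pgm2 (0.999, 0.999 and 0.999), of which Ankrd37 is a known hypoxia target. Among the members, Egr1 went with Junb (0.94) and Egr2 (0.93), and Ier3 with Jun (0.95), Fos (0.91) and Fosl1 (0.88), while Egr1 and Ier3 had a correlation of -0.09. Fosl2 went with Fos (0.90) and Ier3 (0.85), and Jund with Junb (0.89). Read this way, a set with Ier3, Jun, Fos, Fosl1 and Fosl2 rose under hypoxia in both lines. Another set with Egr1, Junb and Egr2 had its highest means in ΔN-VEGF hypoxia and its lowest in WT hypoxia. Fos, Fosl1, Fosl2 and Jund also had their highest means in ΔN-VEGF hypoxia, so that trait alone does not separate the sets. The sets were named after the values were seen.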

How the data were processed

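RNA of 12 samples was sequenced as 80-base single reads. According to the methods and the submitters' processing notes, the authors trimmed reads (Trim Galore, cutadapt 1.10), aligned them with TopHat2 2.1.0 and Bowtie2 2.2.6 to GRCm38.p6 (release 94) and deposited raw counts per gene from HTSeq 0.6.1. These counts are unscaled and hold 54446 genes. Samples were grouped by their labels, and 0 columns of values were left out.

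Counts were fitted in edgeR 4.0.16 (R 4.3.3, limma 3.58.1) with TMM scaling, filterByExpr, 1 mean for each of the 4 groups and the quasi-likelihood F test. Adjustment ran over 14724 genes, and an adjusted p below 0.05 counted as changed. SE is the log2 fold change divided by the square root of F. A prior count of 2 was used for log2 CPM. The alternatives were DESeq2 1.42.0, other scalings, filters and thresholds, single samples left out, and a replicate block. The code was tested on simulated counts.

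The 10 genes, the lists and the alternatives were chosen with earlier results of these data known. From each list, up to 3 rises and 3 falls of largest size with a mean of at least 1 CPM were eligible for naming in each comparison. For Fos, Jun, Egr1 and Ier3 the 3 genes of highest correlation were named if their mean reached 10 CPM. Same-numbered normoxia samples of the lines deviated together from their group means (r of 0.38, 0.50 and 0.36). Deviations within a group of 3 cancel out, and replicate 2 stood apart in both lines, so these values are not independent. They cannot tell a pairing by number from a shared deviation of the samples numbered 2 alone, and the cause was not tested. In the other comparisons the mean r was 0.01 to 0.07. At this depth a gene such as Egr2, with 56 to 194 counts, carries larger counting error than Fosl2, with at least 5455.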

Additional observations from a re-analysis of the deposited data

How the results depend on the processing

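Of the 17 calls among 50 results for the 10 genes, 10 held under every alternative that gave a value: Fos, Jun and Ier3 under hypoxia in both lines, Fosl2 in ΔN-VEGF cells, and Fos, Junb and Egr1 between the lines in hypoxia. Of the 33 without a call, 6 had none under any alternative. DESeq2 gave no adjusted p for Fosl1 in any comparison.

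With all samples, hypoxia changed 6 members in WT and 7 in ΔN-VEGF cells, the lines differed for 0 in normoxia and 4 in hypoxia, and 0 had a passing interaction. The fit of only the 6 samples compared gave 3 in WT hypoxia (12.7% of all genes raised, 11.1% lowered), 10 in ΔN-VEGF hypoxia (31.9% and 35.7%), 0 between the lines in normoxia and 8 in hypoxia (27.9% higher, 29.1% lower). In normoxia the lines differed for 1 member, Ier3, with total counts (1.21% of all genes higher, 2.61% lower), with DESeq2 and with no filter (1.48%, 2.09%). The interaction passed for 1 member with total counts (0.998%, 5.13%), for 2 with DESeq2 and for 2 with no filter (1.53%, 1.46%). Without both normoxia samples numbered 2 the counts were 8 in normoxia, 8 in hypoxia (28.1% of all genes higher, 28.7% lower) and 9 for the interaction. With single samples left out they ran from 3 to 8 in WT hypoxia, 4 to 10 in ΔN-VEGF hypoxia, 0 to 8 and 3 to 6 between the lines in normoxia and hypoxia, and 0 to 9 for the interaction. The high end of each came from leaving out replicate 2 of WT normoxia, and the cause was not tested.

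Fosb in ΔN-VEGF hypoxia was -0.029 with total counts. Egr1 between the lines in normoxia ran from -0.26 to 0.36 with single samples left out and was -0.24 without both samples numbered 2. The interaction of Fosl1 ran from -1.20 to 0.70 and was -0.73.

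With the replicate block the counts of members changed were 6, 8, 0, 4 and 0 in the same order, beside 19.7%, 28.0%, 1.55%, 11.6% and 2.15% of all genes higher and 18.9%, 27.5%, 2.82%, 10.4% and 1.13% lower, and the added call was Jund in ΔN-VEGF hypoxia (adjusted p = 0.036 in edgeR). The block changed no other call of a member, and 10 of 50 list counts moved by over 1.5 times. Nothing used here says that a shared number pairs samples in any of the comparisons.

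Fos and Egr2 rest on 27 to 194 counts in normoxia, while the abundant Fosl2 had at least 5455 in every sample. An effect of depth was not tested. A fold threshold of 2 left 5, 5, 0, 4 and 0 members changed, beside 9.17%, 14.6%, 0.618%, 2.87% and 0.890% of all genes raised and 6.53%, 12.7%, 1.55%, 3.94% and 0.672% lowered. With a prior count of 0.5 the genes nearest to Jun were Kcnk2, F2r and Fam83h. Counts over the lists moved more: without replicate 2 of WT normoxia, 32 of 50 moved by over 1.5 times.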
